A study of Mus musculus with 12 samples.

Results

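Genes that mark eosinophils, basophils and mast cells were followed in whole blood RNA of adult mice at normal oxygen, after chronic hypoxia, and after recovery from it. The members are 10 genes, taken as every probe set that the platform annotation assigns to 1 of them. They are Ear2, Ear3, Epx, Prg2, Ccr3, Il5ra, Mcpt8, Fcer1a, Ms4a2 and Cpa3. Ear2 has no probe set in that annotation and was not analysed here. The other 9 genes have 10 probe sets among the 45101 of the array, each naming a single gene, with 2 for Ms4a2 and 1 for each of the rest. A probe set is a group of short oligonucleotides that together give 1 signal for a transcript. All 12 mice were C57Bl/10, aged 3 months when obtained, with 1 mouse per Affymetrix Mouse 430 version 2 array and 4 mice per group. Normoxic mice (NX) breathed 21% oxygen throughout. Chronic hypoxic mice (CH) spent 2 weeks in a chamber where oxygen was lowered from 21% to 8%, without a change of pressure. Recovery mice (REC) had the same 2 weeks followed by 2 weeks at 21% oxygen. The protocol of the REC mice thus ran longer than that of the other groups, and no normoxic group was kept as long. Age and time in the protocol therefore cannot be told apart from recovery in the REC comparisons. One label field calls the CH mice normoxic, but their titles and treatment call them hypoxic, which was used.

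Eosinophils, basophils and mast cells are granulocytes of allergic and antiparasitic responses, and all store enzymes and basic proteins in granules. Eosinophils are produced under interleukin 5, carry its receptor and the eotaxin receptor CCR3, and pack eosinophil peroxidase, major basic protein and ribonucleases into their granules. Basophils and mast cells bind IgE through the high-affinity receptor FcεRI and release histamine and proteases. Basophils circulate as a small share of blood leukocytes, whereas mature mast cells live in tissues.

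The signals are linear intensities that the authors scaled to the same trimmed mean, 150, on each array. They carry no detection call, so a floor was set for each array at the 95th percentile of 43 probe sets for olfactory receptors, a family best known from the sensory neurons of the nose. The floor lay between 29 and 55.2 on 3 NX arrays, between 45.9 and 74 on 2 CH arrays, and between 29 and 41.5 on the REC arrays. It was higher on NX replicate 1 at 161 and on CH replicates 1 and 2 at 193 and 133, so these 3 arrays stood apart at low signals. A probe set was counted as near the floor in a group when at least 3 of its 4 arrays lay at or below their floors. Spiked bacterial hybridization controls had a mean log2 signal of 12.27 to 13.06 in NX, 14.04 to 14.65 in CH and 11.64 to 12.17 in REC. Changes were tested with limma on log2(signal + 16). A called probe set changed 2-fold or more, with a p under 0.05 after Benjamini-Hochberg adjustment across the array. The added 16 understates changes of dim transcripts.

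Of the 10 probe sets, only that of Ear3 was called in any comparison with the authors' scaling. It was higher in REC than in NX, where 1.62% of all probe sets were called higher, 2.74% lower and 4.36% either way. It was also higher in REC than in CH, where 15.2% were called higher, 12.6% lower and 27.8% either way. In CH against NX no member was called by limma, while 8.04% of all probe sets were called higher, 13.9% lower and 22.0% either way. With arrays scaled on the hybridization controls instead, 3 members were called in CH against NX, 3 in REC against NX and 8 in REC against CH, beside 18035, 8132 and 24600 of all probe sets. At an unadjusted p under 0.05 and the authors' scaling, 1 member passed in CH against NX and 38.4% of all probe sets did. In REC against NX 2 passed, beside 17.8%, and in REC against CH 1 passed, beside 46.1%. Near the floor were 5 of the 10 probe sets in NX, 8 in CH and 3 in REC, against 48.3%, 66.9% and 47.6% of all probe sets. With the array median as the floor, these counts were 5, 4 and 3. The median log2 change of the 10 was 0.13 in CH and 0.06 in REC against NX, beside 0.11 and -0.10 over all probe sets. Both comparisons share the NX arrays. In whole blood, fewer cells of a type and less RNA per cell cannot be told apart.

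**Figure D1:**
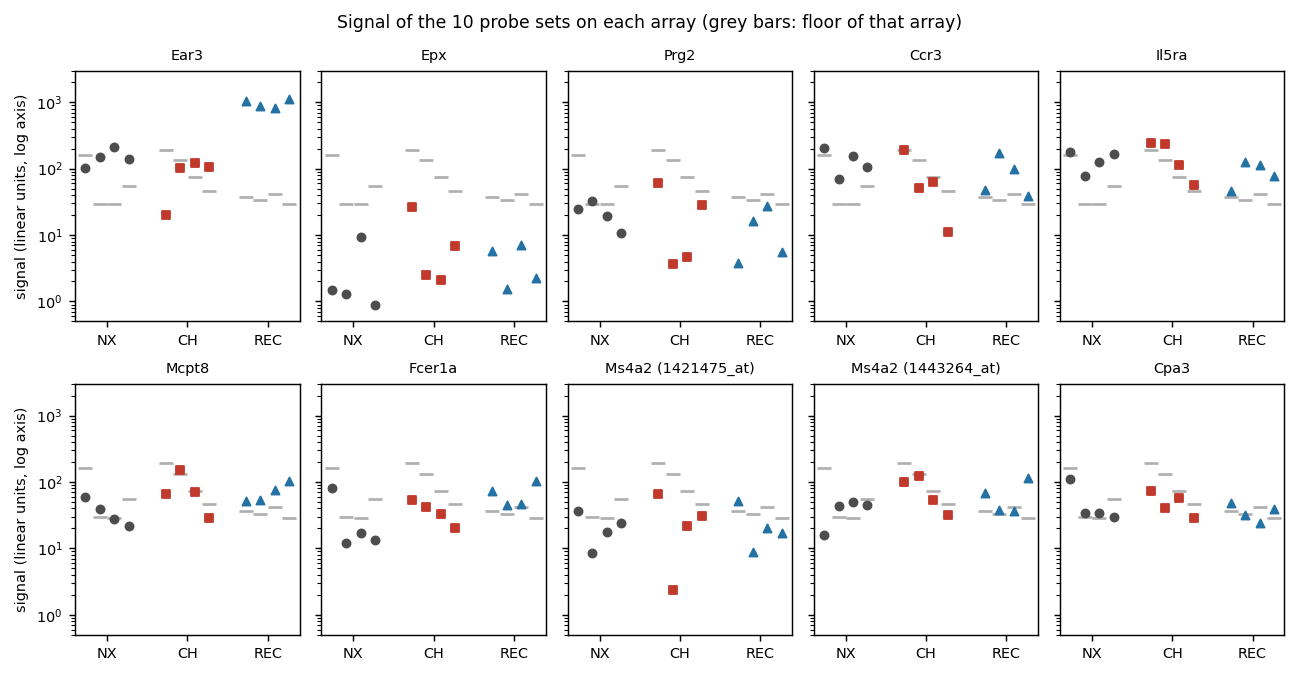
Signal of each of the 10 probe sets (linear units on a log axis) on the 4 NX (circles), 4 CH (squares) and 4 REC (triangles) arrays, with replicates 1 to 4 from left to right in each group and a grey bar for the floor of each array. The Ear3 signals of the REC arrays, 820 to 1121, lie above all other arrays, whereas Epx lies below the floor on all 12 arrays.

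Ear3 encodes an eosinophil-associated ribonuclease, 1 of a family of secreted enzymes with closely related sequences. Its signal was 101, 151, 211 and 141 on the NX arrays, 19.9, 102, 123 and 107 on the CH arrays, and 1039, 867, 820 and 1121 on the REC arrays. Each REC array lay above each NX and CH array, with no overlap, and the REC arrays differed little among themselves. Over all probe sets, groups did not overlap, in either direction, for 20.3% in REC against NX and 32.4% in REC against CH. No other member was free of overlap. The NX mean was 151 ± 45.8, the CH mean 88 ± 46.3 and the REC mean 962 ± 142 (SD over n = 4 arrays). Against NX the REC signal was higher by a log2 change of 2.58, with a standard error of 0.38 and an adjusted p of 0.00215 from limma. Against CH it was higher by 3.39, with a standard error of 0.38 and an adjusted p of 1.03e-05 from limma. The log2 change of CH against NX was -0.82, with a 95% interval from -1.62 to -0.01 and an adjusted p of 0.127. CH replicate 1 was far below the other CH arrays, and 1 NX and 2 CH arrays lay below their floors. Without that array, the log2 change of CH against NX was -0.36. The probe set, 1422412_x_at, is of the type that the manufacturer marks as able to bind related transcripts, so signal of other ribonucleases of the family cannot be told from that of Ear3. Rnase2a, also known as Ear11, was the only other ribonuclease of those listed with a named probe set, and was near the floor in all 3 groups with means of 1.78 in NX, 8.9 in CH and 0.622 in REC.

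Beside the REC increase of Ear3, the fixed marker lists of other blood cells gave these values. Of 10 monocyte and macrophage genes, 1 was called higher in REC than in NX, Fabp4, a fatty acid binding protein of macrophages and fat cells, at a log2 change of 2.21. Ace, Nr4a1 and Csf1r, at 1.26, 1.08 and 1.07, were not called (adjusted p = 0.0693, 0.119 and 0.233 from limma). Lyz2, Ccr2, Mrc1, Marco and Chil3 had changes of -0.16, -0.2, -0.51, -0.6 and -0.03, and Cx3cr1 of 0. The median of the list was -0.02. The summed signal of that list was 7876 to 12439 in NX, 4084 to 13014 in CH and 9190 to 13321 in REC, with 1, 5 and 1 of its genes near the floor. Lyz2, the brightest of the list, alone gave 5916 to 9640 in NX and 6234 to 8688 in REC. Of 10 lymphocyte genes, 1 was called higher in REC than in NX, Nkg7, at a log2 change of 1.81. Cd3d, at 1.12, was not called (adjusted p = 0.11 from limma), and the median of that list was 0.47. The summed signal of the lymphocyte list was 18563 to 23174 in NX and 27622 to 30291 in REC. Of 14 neutrophil genes, none was higher or lower in limma's test of REC against NX. Of 6 erythroid genes, 5 were lower in REC than in NX, with summed signals of 20553 to 32044 in NX and 4287 to 14752 in REC. The part of these other cells in the Ear3 signal was not tested.

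The transcripts of the eosinophil granule proteins Epx and Prg2 lay near the floor in all 3 groups, and protein was not measured. Epx encodes eosinophil peroxidase, the enzyme that makes hypobromous acid in the granules. Its signal was 1.51, 1.31, 9.47 and 0.882 in NX, 26.3, 2.48, 2.12 and 6.96 in CH, and 5.7, 1.55, 7.04 and 2.26 in REC. All 12 values lay below the floors of their arrays. The log2 change was 0.33 in CH and 0.07 in REC against NX, with 95% intervals from -0.28 to 0.94 and from -0.54 to 0.69. Prg2 encodes the major basic protein that forms the crystalloid core of eosinophil granules. Its signal was 24.8, 32.4, 19.1 and 10.7 in NX, 60.1, 3.64, 4.66 and 28.6 in CH, and 3.77, 16.3, 27.6 and 5.58 in REC. It was above its floor on 1 array, NX replicate 2, and the groups overlapped. The log2 change of Prg2 was -0.11 in CH and -0.41 in REC against NX, with 95% intervals from -0.99 to 0.78 and from -1.29 to 0.48. Prg3, a homologue of Prg2, was also near the floor in all groups, with means of 3.36 in NX, 2.24 in CH and 6.19 in REC.

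Of the 2 eosinophil receptors, Il5ra was above the floor on every array and Ccr3 on the NX and REC arrays. Il5ra encodes the ligand-binding chain of the interleukin 5 receptor, the growth and survival receptor of eosinophils. Its signal was 176, 78.3, 126 and 166 in NX, 240, 239, 114 and 57.1 in CH, and 45.9, 125, 115 and 76.6 in REC. It was above the floor on all 12 arrays, at 1.09 to 4.34 times the floor in NX, 1.25 to 1.79 times in CH and 1.24 to 3.78 times in REC. The 3 groups overlapped, and the CH arrays were the most spread. The log2 change was 0.10 in CH (95% interval -0.77 to 0.98) and -0.53 in REC (-1.41 to 0.34) against NX. REC against CH gave -0.64 (95% interval -1.51 to 0.24, adjusted p = 0.236 from limma). Without CH replicate 4 that change was -1.01 with an adjusted p of 0.0385. Without the 3 arrays of highest floor it was 0.06 with an adjusted p of 0.932, and scaling on the hybridization controls turned it to 1.41 with an adjusted p of 0.00922, so no direction is given for it.

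Ccr3 encodes the receptor for eotaxins, which draws eosinophils into tissues and is also found on basophils. Its signal was 208, 69.4, 153 and 105 in NX, 191, 51.3, 63.9 and 11.3 in CH, and 48.6, 174, 97.3 and 39.1 in REC. All NX and REC arrays were above their floors and all CH arrays at or below them. The groups overlapped, with CH ranging from 11.3 to 191. The NX mean was 134 ± 60.4, the CH mean 79.4 ± 77.8 and the REC mean 89.7 ± 61.6 (SD over n = 4 arrays). The log2 change was -0.92 in CH (95% interval -2.07 to 0.23, adjusted p = 0.229 from limma) and -0.59 in REC (-1.74 to 0.56) against NX. Without CH replicate 1 the change in CH was -1.41 with an adjusted p of 0.0446, where the adjusted p ranged from 0.00495 to 0.513 over all alternatives.

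**Figure D2:**
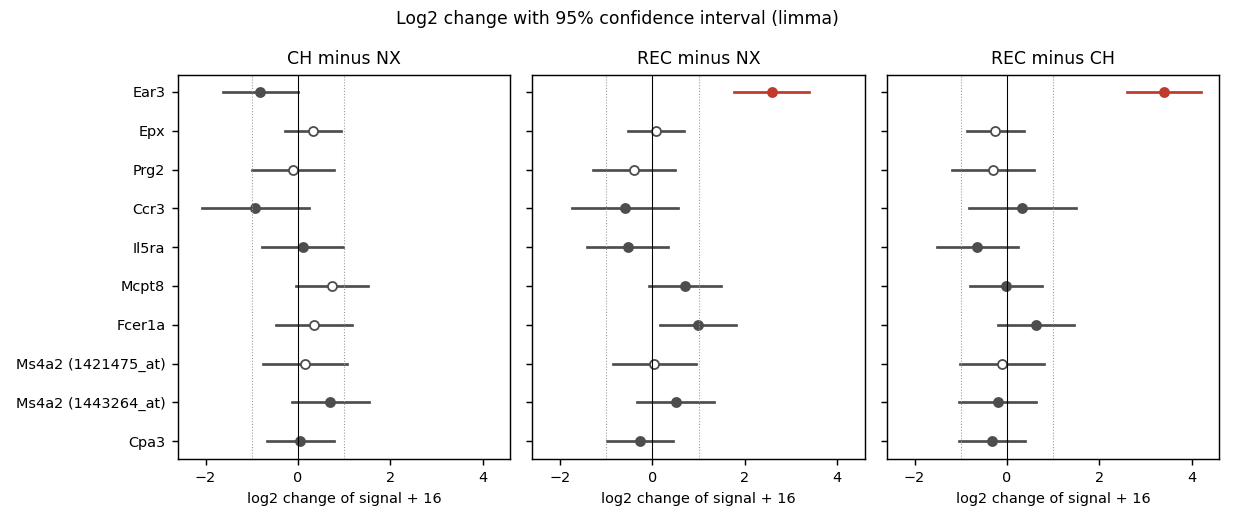
Log2 change of signal + 16 for each probe set in CH against NX, REC against NX and REC against CH, with lines for the 95% confidence interval from limma; red marks a called change, open circles a probe set near the floor in both groups, and dotted lines a 2-fold change. With the authors' scaling, Ear3 is the sole called member, at 2.58 in REC against NX and 3.39 in REC against CH.

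Among basophil genes, Mcpt8 encodes a granule protease that marks mouse basophils. Its signal was 59.5, 39.1, 28 and 22.1 in NX, 66.8, 151, 70.3 and 28.6 in CH, and 51.7, 52.7, 74.5 and 103 in REC. It was above the floor on all 4 REC arrays but on only 1 array in each of NX and CH. The lowest NX arrays lay below all REC arrays, but NX replicate 1 fell within the REC range. The log2 change was 0.73 in CH (95% interval -0.05 to 1.51, adjusted p = 0.155 from limma) and 0.71 in REC (-0.07 to 1.49, adjusted p = 0.336) against NX. Without CH replicate 4 the change in CH was 1.05 with an adjusted p of 0.0282, where the adjusted p ranged from 0.0282 to 0.424 over all alternatives.

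Fcer1a encodes the chain of FcεRI that binds IgE. Its signal was 81.2, 12.1, 17.2 and 13.6 in NX, 53.3, 42.3, 32.5 and 20.4 in CH, and 73.5, 45.5, 46.3 and 105 in REC. As with Mcpt8, all 4 REC arrays were above their floors, while no NX or CH array was. The log2 change in REC against NX was 0.99 (95% interval 0.16 to 1.81), with an unadjusted p of 0.0226 and an adjusted p of 0.183 from limma, and was not called. NX replicate 1, an array of high floor, was the only NX array within the REC range. Without it, the log2 change was 1.41 with an adjusted p of 0.0294, and it was the same 1.41 with an adjusted p of 0.0147 without the 3 arrays of highest floor. The adjusted p ranged from 0.00358 to 0.401 over all alternatives. Against CH, the log2 change in REC was 0.63 (95% interval -0.19 to 1.46).

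Ms4a2, which encodes the β chain that amplifies FcεRI signalling, had 2 probe sets. The set 1443264_at gave 16.1, 44.1, 50.3 and 44.7 in NX, 101, 123, 53.6 and 31.7 in CH, and 69.2, 38.2, 36 and 114 in REC. It was above the floor on 2 NX, 0 CH and 3 REC arrays, and the groups overlapped. Its log2 change was 0.70 in CH (95% interval -0.13 to 1.53) and 0.50 in REC (-0.33 to 1.33) against NX. The set 1421475_at was dimmer, at 8.63 to 36.6 in NX, 2.4 to 66.4 in CH and 8.72 to 52 in REC, and was near the floor in all 3 groups. Its log2 change was 0.15 in CH and 0.04 in REC against NX.

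Cpa3 encodes a carboxypeptidase stored in the granules of mast cells and basophils. Its signal was 110, 33.6, 34.7 and 29.5 in NX, 72.5, 40.7, 58 and 28.4 in CH, and 47.5, 32.2, 23.8 and 39.7 in REC. It was above the floor on 2 NX, 0 CH and 2 REC arrays, and its highest value came from NX replicate 1, an array of high floor. The log2 change was 0.05 in CH (95% interval -0.67 to 0.77) and -0.27 in REC (-0.99 to 0.45) against NX. Over all members in REC against NX, 6 of the 10 log2 changes were positive and 1 was called.

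Among further eosinophil genes, some were lower in CH. Of 13 measured beyond the members, with 1 probe set each, 5 were called lower in CH than in NX, against 13.9% of all probe sets, and the same 5 were called higher in REC than in CH, against 15.2%. None was called in REC against NX. Alox15, a 12/15-lipoxygenase of eosinophils and macrophages, had signals of 112, 128, 146 and 140 in NX, 10.3, 17.2, 4 and 1.8 in CH, and 87.4, 380, 249 and 209 in REC. The CH arrays lay below all others, at a log2 change of -2.64 against NX (standard error 0.35, adjusted p = 9.64e-05 from limma). Siglecf, an inhibitory sialic acid receptor of eosinophils, had 137, 111, 141 and 151 in NX, 81.1, 15, 43.5 and 12.7 in CH, and 129, 269, 122 and 182 in REC. Again no CH array reached the others, and the log2 change of CH against NX was -1.66 (standard error 0.37, adjusted p = 0.00354 from limma). Alox15 and Siglecf were near the floor in CH but not in NX or REC. Over all probe sets, CH and NX did not overlap in 26.1%, and CH and REC in 32.4%. Adgre1, the F4/80 antigen of macrophages and eosinophils, had a log2 change of -1.55 in CH against NX, with means of 287 in NX, 91.9 in CH and 353 in REC.

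The other 2 called genes were the β receptor chains Csf2rb, at -1.51, and Csf2rb2, at -1.33, both also used by other myeloid cells. Csf2rb2 too was near the floor in CH but not in NX or REC, and its CH and NX arrays overlapped. The CH call of Csf2rb was lost without NX replicate 2, 3 or 4 or CH replicate 2 or 4, at log2 changes of -1.53, -1.54, -1.40, -0.99 and -1.31, and that of Csf2rb2 without NX replicate 4, at -1.24. Their calls in REC against CH, at 1.38 and 1.14, were also lost without 1 array, at log2 changes down to 0.86 and 0.82. Without 1 array the count of 5 lower in CH than in NX was 3 to 5, and without the 3 arrays of highest floor it was 5. For the 5 higher in REC than in CH, these counts were 3 to 5 and 4. With quantile normalization the count was 4 in both comparisons. The remaining 8 genes, the cytokines Il5, Il3 and Csf2, the eotaxins Ccl11 and Ccl24, Ltc4s, Prg3 and Rnase2a, were near the floor in all 3 groups. In CH against NX, 9 of 10 lymphocyte genes and 2 of 10 monocyte and macrophage genes were also lower and 5 of 6 erythroid genes higher, the last with summed signals of 95031 to 152839 in CH. The part of these cells in the decreases was not tested.

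**Figure D3:**
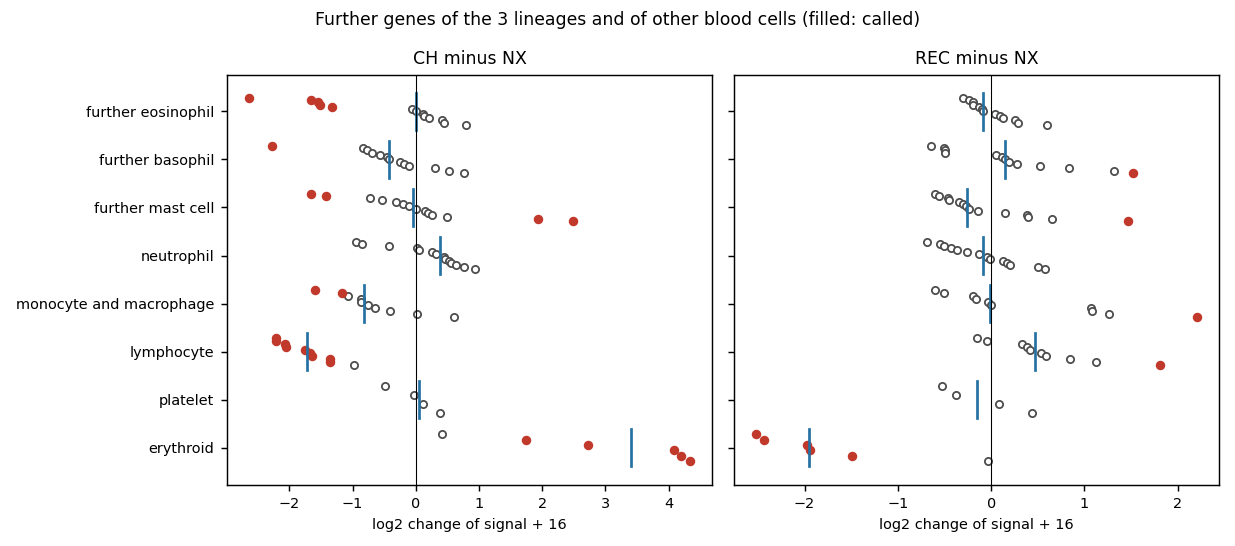
Log2 change of signal + 16 in CH (left) and REC (right) against NX for further genes of the 3 lineages and for marker genes of other blood cells, with 1 point per gene, filled where called, and a blue bar at the median of each list. In CH, 5 further eosinophil genes and 9 lymphocyte genes lie among the lower calls, and 5 erythroid genes among the higher calls.

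The median log2 change of 13 further basophil genes was -0.43 in CH and 0.15 in REC against NX. Of these, 1 was lower in CH than in NX, beside 13.9% of all probe sets, and 1 higher in REC than NX, beside 1.62%. The first was Cd69, an activation antigen of lymphocytes and other leukocytes, at -2.28. The second was Ccl4, a chemokine of NK cells, T cells and myeloid cells, at 1.52 (adjusted p = 0.0377 from limma). Leaving out any 1 NX or REC array ended the Ccl4 call, with log2 changes from 1.41 to 1.71. In REC against CH, 4 of the 13 were higher, beside 15.2% of all probe sets. They were Il4, Gata2, Cd69 and Ccl4, at log2 changes of 1.08, 1.29, 1.64 and 2.09. Il4 is a cytokine of basophils and T helper cells, and Gata2 a transcription factor of basophil, mast cell and stem cell development. Il4 and Ccl4 were near the floor in CH, and the Gata2 call was lost with quantile normalization, at 0.87. The call of Il4, at means of 23 in CH and 59.7 in REC, was lost without CH replicate 3 or 4 or REC replicate 1, 2 or 4, with log2 changes down to 0.83. Hdc, which encodes the enzyme that makes histamine, had means of 290 in NX, 192 in CH and 268 in REC and was not called. Cd200r3, a basophil receptor, was near the floor in NX and CH, with means of 32.2 in NX, 29.6 in CH and 36.7 in REC.

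Of 14 further mast cell genes, 2 were called higher and 2 lower in CH against NX, beside 8.04% and 13.9% of all probe sets. In REC against NX 1 was higher, beside 1.62%. In REC against CH, 4 were higher, Fcer1g, Lat2, Cma1 and Slc18a2, at 1.18, 1.8, 1.31 and 1.05, beside 15.2%. Gata1 and Mcpt2 were lower, at -2.1 and -2.17, beside 12.6%. Fcer1g had means of 2090 in CH and 4797 in REC. Cma1 and Slc18a2 were near the floor in CH. The Cma1 call was lost without REC replicate 1, at 1.14. That of Slc18a2 was lost without CH replicate 4 or REC replicate 1 or 4, at 0.99, 0.91 and 0.96. Of the 8 mast cell markers, members included, 5 were near the floor in NX, 8 in CH and 4 in REC. Kit, the stem cell factor receptor, had means of 9.82, 11 and 7.42 in NX, CH and REC. The tryptase genes Tpsb2 and Tpsab1 had means of 27.4, 36.5 and 17.4, and of 4.85, 3.41 and 0.698, in the same order. The proteases Mcpt1 and Mcpt4 were also near the floor. Cma1, a mast cell chymase, was the gene called higher in REC than in NX. Its signal was 82.7, 94.6, 79.1 and 22.5 in NX, 76.3, 128, 73.1 and 35.5 in CH, and 301, 227, 144 and 172 in REC. All REC arrays lay above all NX and CH arrays, at a log2 change against NX of 1.47 (standard error 0.38, adjusted p = 0.0399 from limma). Over all probe sets, 20.3% had no overlap between REC and NX, and 32.4% none between REC and CH. The Cma1 call against NX was lost when any 1 NX or REC array was left out, at log2 changes of 1.12 to 1.62.

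The higher genes in CH were Gata1, a transcription factor also of red cell and platelet precursors, at 2.49, and Mcpt2, a mucosal mast cell protease, at 1.93. Both calls were lost with scaling on the hybridization controls, at 0.90 and 0.81. Mcpt2 had signals of 29.6 to 98.7 on the CH arrays, 1.45 to 11.3 in NX and 1.56 to 6.18 in REC, but was near the floor in all 3 groups. The lower genes in CH were Slc18a2, the vesicular monoamine transporter also of platelets, at -1.65, and Lat2, an adaptor of several leukocytes, at -1.42. Slc18a2 was near the floor in CH but not in NX or REC. Without the 3 arrays of highest floor the change of Lat2 was -1.14, with an adjusted p of 0.0688. Of 4 platelet genes none was called in limma's CH or REC comparisons with NX, and of 5 progenitor genes 2 were lower in CH.

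Ear3 had the highest mean log2 signal of the members, and its pattern over the 12 arrays was compared with 11613 other probe sets that name 1 gene and have a mean signal of at least 100. The closest was Acot13, a thioesterase of mitochondria, with a Pearson r of 0.990. Mrpl13, a protein of the mitochondrial ribosome, had 0.984, Bst2, the interferon-induced tetherin, 0.982, Rab4b, a GTPase of endosome recycling, 0.981, and Anp32b, a histone chaperone, 0.973. These 5 were chosen for their likeness, and the 12 points share 3 groups of arrays, so r is a description. A total of 319 probe sets, 2.75% of those compared, reached an r of 0.9. The members were less alike to Ear3 than these, with r from -0.576 for Il5ra to 0.380 for Fcer1a. Acot13 had signals of 295 to 454 in NX, 150 to 356 in CH and 879 to 1088 in REC, with a log2 change of 1.48 in REC against NX beside 2.58 for Ear3.

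**Figure D4:**
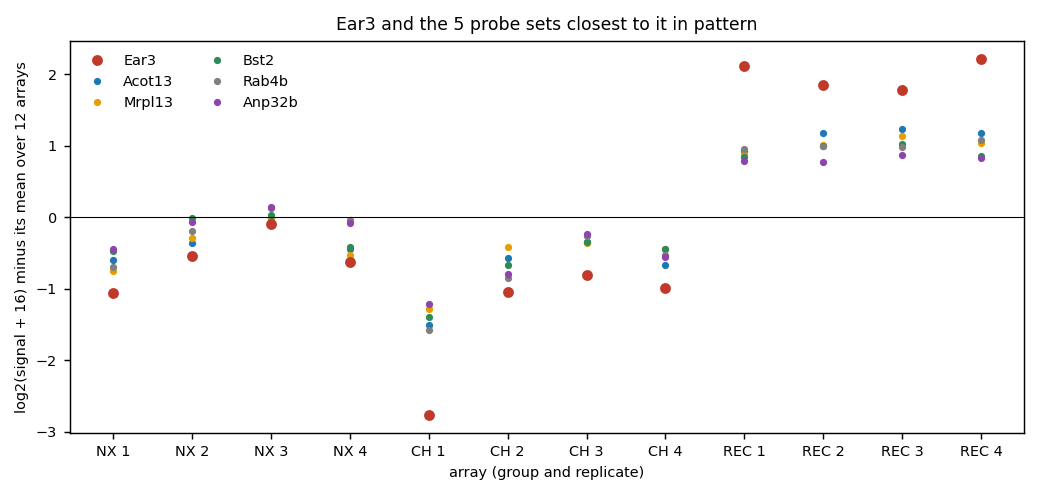
Log2(signal + 16) of Ear3 (large red points) and of the 5 probe sets closest to it in pattern (small points), each minus its mean over the 12 arrays, by group and replicate. All 6 are highest on the 4 REC arrays and lowest on CH replicate 1, and Ear3 moves over the widest range.

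In the GRCm38.p6 annotation of RefSeq, 9 of the 10 genes were matched by symbol, and Ear3 was not. The matched eosinophil genes lie on 5 chromosomes, with Ear2 at chr14:44102654-44103531, Epx at chr11:87863997-87875536, Prg2 at chr2:84980461-84983632, Ccr3 at chr9:124017825-124031692 and Il5ra at chr6:106710375-106749037. Of the basophil and mast cell genes, Mcpt8 lies at chr14:56082163-56085499, Fcer1a at chr1:173221269-173227232, Ms4a2 at chr19:11615517-11623790 and Cpa3 at chr3:20215616-20242209. Among the 9 matched genes, Ear2 and Mcpt8, both on chromosome 14, are the only pair on the same chromosome.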

How the data were processed

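Whole blood RNA from the inferior vena cava of 12 mice was measured on 1 array each. The authors deposited linear intensities, scaled per array (2% trimmed mean of 150). The study's methods say that probe set intensities were stored by Affymetrix GeneChip Operating System, and name GC-RMA for its own analysis. The labels and the paper describe different amplification kits. Of the 45101 probe sets, the platform annotation names 1 gene for 34958, several for 932 and none for 9211. Further genes and marker lists used the brightest probe set per gene. A mean per group was fitted to log2(signal + 16) of all 12 arrays (limma 3.58.1, run under R 4.3.3), with 9 residual degrees of freedom. The fit was tested on simulated data. Figures used Python 3.11.15 and matplotlib 3.10.9. Members, lists, tests and alternatives were chosen with earlier results of these data known. All 10 member genes were named, then called genes of the lists and the 5 probe sets most like the brightest member. The floor rule was a description without a test. The number of arrays limits the precision. Alternatives were other scalings, pseudocounts, priors, thresholds, filters, arrays left out, the replicate number as a block and averaging the probe sets of each gene. The arrays of highest floor were left out together, an alternative chosen after seeing the data.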

Additional observations from a re-analysis of the deposited data

Results flagged for a closer look

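Of 30 sets of 4 arrays (10 probe sets in 3 groups), 5 held 1 array far from the rest on the log2 scale, where chance gives about 1 in 20. Ear3 on CH replicate 1 was 19.9, where the other CH arrays lay between 102 and 123. Fcer1a on NX replicate 1 was 81.2 against 12.1 to 17.2 on the others. On the same array Cpa3 was 110 against 29.5 to 34.7, and Ms4a2 (1443264_at) was 16.1 against 44.1 to 50.3. Epx on NX replicate 3 was 9.47 against 0.882 to 1.51, with all of these below the floor. All 5 outlying values lay below the floors of their arrays.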

How the results depend on the processing

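The Ear3 calls in REC held in all 24 alternatives, at log2 changes of 2.42 to 3.39 against NX and 2.89 to 5.45 against CH. The number of members called with 1 array left out was 0 to 1 in CH against NX, 1 to 2 in REC against NX and 1 to 2 in REC against CH. Fcer1a made it 2 in REC against NX with median centring and without the 3 arrays of highest floor. Scaling on the hybridization controls, gave 3 called members in CH against NX (Ear3, Ccr3 and Il5ra, all lower), 3 in REC against NX (Ear3, Mcpt8 and Fcer1a, all higher) and 8 in REC against CH (every probe set but those of Epx and Prg2, all higher). It shifts the array-wide median log2 change to -0.71, 0.40 and 1.13, from 0.11, -0.10 and -0.25. Under it Ear3 was called lower in CH than in NX, at -2.05, and Il5ra turned to -1.22 in CH against NX. In REC against CH, Il5ra turned to 1.41, Mcpt8 to 1.83, Ms4a2 to 1.15 (1421475_at) and 1.62 (1443264_at), Cpa3 to 1.33 and Gata1 to 0.29; the cause was not tested. The further eosinophil genes lower in CH numbered 5 under it too, while further basophil genes lower in CH went from 1 to 7 and further mast cell genes from 2 to 6. Of 711 member values over the alternatives, 54 changed sign without being called either time. Among same-numbered arrays, 3 of 12 correlations of deviations exceeded 0.1, beside 5 of 36 among arrays of different number. Their medians were 0.0253 and -0.0108, and their highest values 0.436 and 0.353. With the replicate number as a replicate block the members called were 0, 1 and 1, as without it, and all probe sets called were 10035, 1960 and 13022 against 9910, 1966 and 12554. Dim signals limit 8 of the 10 probe sets in CH.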
